A study of Homo sapiens with 6 samples.

Results

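The Hippo pathway, its TEAD transcription factors and the CCN proteins were followed through 10 genes in cells that the labels call HCT8, a line derived from a human colorectal cancer. The genes were YAP1, WWTR1, TEAD1, TEAD4, LATS2, AMOTL2, AJUBA, CCN1, CCN2 and CCN3, found by symbol among the 60664 genes of the deposited count table, and all 10 were matched and passed the filter on low counts. mRNA had been sequenced from 3 libraries of cells transfected with a GPT1 overexpression plasmid, with the genotype labelled GPT1 overexpression, and from 3 libraries of cells transfected with a control plasmid, with the genotype labelled WT. GPT1 is an alanine aminotransferase of the cytosol, encoded by GPT, and the series asked which signalling it controls in these tumour cells. The sources used here do not give the plasmid's promoter, the time after transfection or whether the cells were 1 clone or a pool. They do not state that the replicates were separate cultures, so that p-values measure only the spread between these libraries, which may be technical.

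In the Hippo pathway, the STE20-like kinases and their scaffold proteins activate the LATS kinases, which phosphorylate the coactivators YAP, encoded by YAP1, and TAZ, encoded by WWTR1. Phosphorylated YAP and TAZ are kept in the cytoplasm or degraded, whereas unphosphorylated YAP and TAZ enter the nucleus and bind the TEAD factors on DNA. CCN1 and CCN2, which encode secreted matricellular proteins, are among the best known genes that this complex switches on, and in the intestine YAP and TAZ are known for their part in regeneration and tumour growth. Most of this control acts on the phosphorylation and location of proteins, which mRNA counts do not measure.

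Libraries held between 30370654 and 31513656 counts in the GPT1 group and between 21255655 and 32487217 in the control group, the shallowest being control replicate 3. GPT had 105529, 96886 and 106063 counts in the GPT1 libraries, against 9, 14 and 3 counts in the control libraries. Of 13 colon epithelial markers 9 were tested, of which 8 were lower in the GPT1 libraries and 0 were higher. Over all tested genes 14.6% were lower and 10.5% higher, the background for each marker list here. The summed level of the 13 markers ran from 565 to 624 CPM in GPT1 libraries and from 902 to 1027 CPM in control libraries. CPM are counts scaled to a common library total with TMM factors, but marker sums used the library total without these factors. The intestinal markers CDX1, KRT20, CEACAM5 and GPA33 were near 0, with group means of at most 0.303 CPM, while the mesenchymal marker VIM stood at 1039.7 CPM in GPT1 libraries and 1023 CPM in control libraries. The levels of these genes go against the label of a colon epithelial line in both groups. Other markers of the epithelial list, some of them intestinal, were present. KRT8 stood at 352 CPM in GPT1 libraries and 529 CPM in control libraries, and KRT18 at 171 and 261 CPM. In the same order CDH1 stood at 12.5 and 50.1 CPM, EPCAM at 9.28 and 24.9 CPM, and the intestinal factor CDX2 at 45.3 and 41.7 CPM. KRT19 stood at 11.4 and 51.2 CPM, and the intestinal marker VIL1 at 3.17 and 12.3 CPM. The intestinal markers CDH17 (0.945 and 3.97 CPM) and LGALS4 (0.814 and 3.91 CPM) were lower still but not absent. The identity of the line was not tested. The list of neural and kidney-line markers, of which 3 of 6 were lower and 0 higher, summed to between 191 and 197 CPM in GPT1 libraries and between 408 and 512 CPM in control libraries. Most of this sum was NEFM (104 CPM in GPT1 and 293 CPM in control libraries) and NEFL (83.0 and 152 CPM), lower along with MAP2 (2.09 and 5.34 CPM). PAX2 (5.14 and 5.65 CPM), PAX8 (0.28 and 0.50 CPM) and TUBB3 (0.60 and 0.75 CPM) were not called. Endothelial and leukocyte markers summed to under 3 CPM in every library, and the fibroblast list, in which 1 of 5 tested genes was higher, to 1056 ± 10.2 CPM in GPT1 libraries and 1052 ± 22.1 CPM in control libraries (SD, n = 3). Nearly all of the fibroblast sum was VIM. COL1A1 stood at 15.5 CPM in GPT1 libraries and 18.6 CPM in control libraries. COL1A2, DCN, PDGFRA and PDGFRB stayed under 1 CPM in every library, and THY1 and FAP had 0 counts. The part of these markers in the results on the pathway was not tested, and fewer cells of a type cannot be told apart from less RNA per cell.

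Libraries of the same group also differed along the GC content of transcripts, and the part of this trend in the results was not tested beyond the corrected fit. A library's deviation from its group mean correlated with GC content across 17436 genes at 0.526, -0.529 and 0.0459 (Spearman) in GPT1 replicates 1, 2 and 3, and at 0.433, 0.455 and -0.605 in control replicates 1, 2 and 3. The log2 fold change between the groups correlated with GC content at 0.31 and with transcript length at -0.331, genes not being independent replicates. A fit that corrects each library for transcript length and GC content is therefore given beside genes whose call it ends or adds, and beside others whose value it moved far. Over all tested genes it called 18.6% lower and 15.8% higher.

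In the GPT1 libraries YAP1 fell to 0.66, TEAD1 to 0.59, CCN1 to 0.77 and CCN2 to 0.68 of the control level, and CCN3 rose 3.05-fold. WWTR1, TEAD4, LATS2, AMOTL2 and AJUBA did not pass the test. Counts were compared with edgeR's quasi-likelihood test on the whole table, and a gene was called at a Benjamini-Hochberg adjusted p under 0.05 over 17638 tested genes. By this rule 4 of the 10 genes were lower and 1 was higher in the GPT1 libraries, where 14.6% of all tested genes were lower and 10.5% higher, 25.1% in all. The median log2 fold change was -0.32 over the 10 genes and -0.02 over all tested genes. The CPM values of the groups did not overlap in 8 of the 10 genes, against 43.4% of all tested genes. In 6 of them the GPT1 libraries lay below and in 2 above, against 22.2% and 21.2% of all tested genes.

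**Figure D1:**
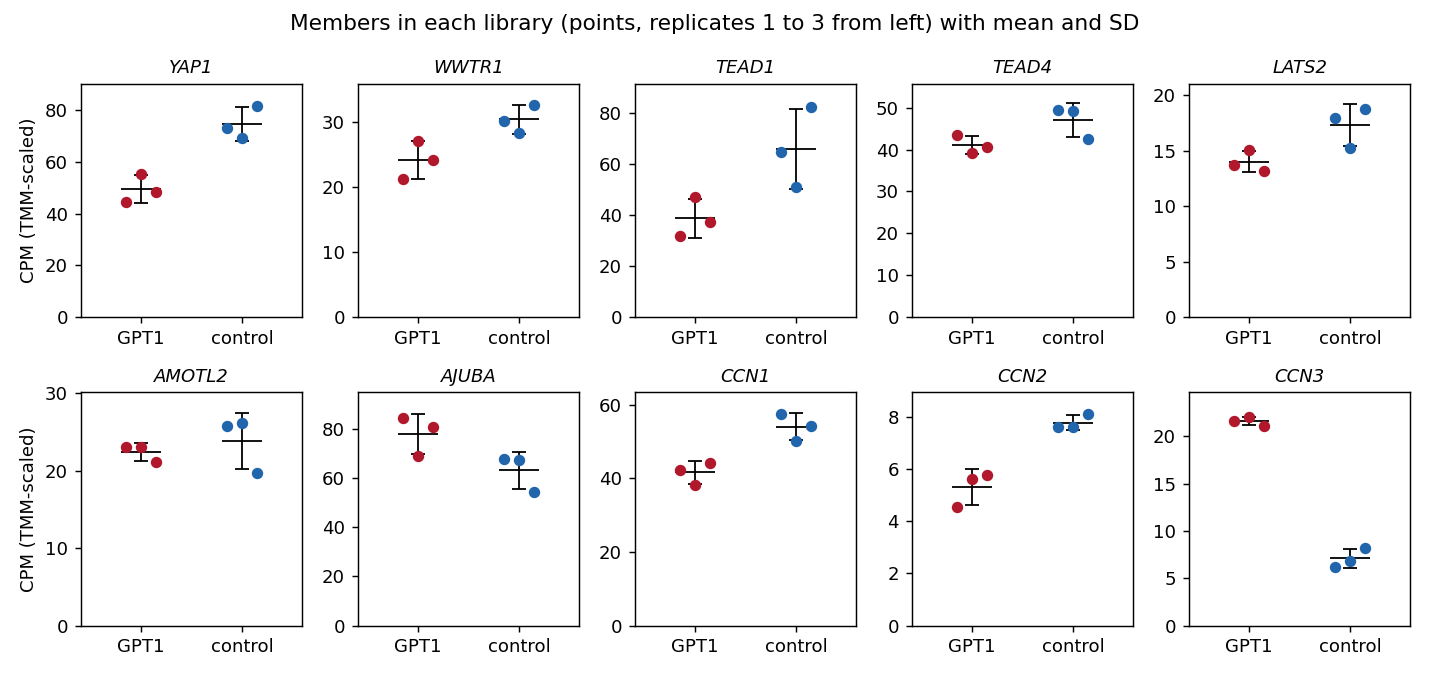
CPM scaled by TMM factors (y axis, from 0, a scale of its own in each panel) of the 10 genes in the 3 GPT1 libraries (red) and the 3 control libraries (blue). Each point is 1 library, and the bars give the mean and SD. The groups overlap in TEAD4 and AMOTL2 alone among the 10 genes, and CCN3 lies near 21.6 CPM in GPT1 libraries and near 7.11 CPM in control libraries.

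The coactivator gene YAP1 (GRCh38 chromosome 11, 102110461 to 102233423, plus strand) had 44.6, 55.4 and 48.4 CPM in the GPT1 libraries, against 73.3, 69.1 and 81.7 CPM in the control libraries. Every GPT1 library lay below every control library. The means were 49.4 ± 5.49 CPM in GPT1 libraries and 74.7 ± 6.42 CPM in control libraries (SD, n = 3), a log2 fold change of -0.60 ± 0.11 (SE; edgeR adjusted p = 0.00493). The call held when each library was left out in turn, with adjusted p up to 0.0338. Its paralog WWTR1 (chromosome 3, 149517235 to 149736714, minus strand), which encodes TAZ, had 21.2, 27.0 and 24.1 CPM in the GPT1 libraries and 30.1, 28.3 and 32.7 CPM in the control libraries. These groups did not overlap either, but the difference did not pass the test (log2 fold change -0.33 ± 0.12, edgeR adjusted p = 0.0643). With the length and GC correction the WWTR1 value was -0.13 (adjusted p = 0.201). WWTR1 shares 795 exonic bases with the antisense gene WWTR1-AS1, which had 115 counts over the 6 libraries against 4804 for WWTR1. The sources do not say whether counting used strand, so reads of the pair cannot be told apart.

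TEAD1 and TEAD4 encode TEAD factors, the DNA-binding partners without which YAP and TAZ cannot contact most of their sites. TEAD1 (chromosome 11, 12674591 to 12944483, plus strand) had 31.7, 46.9 and 37.0 CPM in the GPT1 libraries, against 64.7, 50.9 and 82.0 CPM in the control libraries. The groups did not overlap, though GPT1 replicate 2 and control replicate 2 lay close together, and the highest values of each group came from GPT1 replicate 2 and control replicate 3, the libraries whose deviations ran against GC content. TEAD1 fell by 0.77 ± 0.18 on the log2 scale (SE; edgeR adjusted p = 0.0138) and by 0.46 with the length and GC correction, still past the threshold (adjusted p = 0.00366). The TEAD1 call ended without GPT1 replicate 1 or GPT1 replicate 3 (adjusted p = 0.0586 and 0.0589, the highest over single leave-outs). TEAD4 (chromosome 12, 2959330 to 3040673, plus strand) had 43.5, 39.3 and 40.5 CPM in the GPT1 libraries and 49.5, 49.2 and 42.5 CPM in the control libraries. Control replicate 3 lay within the range of the GPT1 libraries. The log2 fold change of TEAD4 was -0.20 ± 0.10 (edgeR adjusted p = 0.174), and -0.36 with the length and GC correction, under which it passed (adjusted p = 0.0013).

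LATS2 (chromosome 13, 20973032 to 21061547, minus strand), a kinase that phosphorylates YAP and TAZ, had 13.7, 15.05 and 13.2 CPM in the GPT1 libraries, against 17.9, 15.2 and 18.8 CPM in the control libraries. The groups were separated by the narrow gap between GPT1 replicate 2 and control replicate 2, and the difference did not pass (log2 fold change -0.31 ± 0.13, edgeR adjusted p = 0.0947). AMOTL2 (chromosome 3, 134355874 to 134375479, minus strand) encodes an angiomotin-like scaffold that binds YAP and holds it at junctions. It had 23.0, 23.1 and 21.1 CPM in the GPT1 libraries and 25.7, 26.2 and 19.7 CPM in the control libraries, with control replicate 3 the lowest of all (log2 fold change -0.09 ± 0.13, edgeR adjusted p = 0.619). AJUBA (chromosome 14, 22971174 to 22982642, minus strand), a LIM-domain protein that binds LATS kinases and restrains them, had 84.5, 68.8 and 80.9 CPM in the GPT1 libraries, against 67.6, 67.3 and 54.4 CPM in the control libraries. All GPT1 values of AJUBA lay above all control values, by little in GPT1 replicate 2. The log2 fold change of 0.31 ± 0.11 did not pass (edgeR adjusted p = 0.0708) and was 0.26 with the length and GC correction, under which it passed (adjusted p = 0.018). AJUBA also passed without GPT1 replicate 2 (0.41, adjusted p = 0.0302).

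The CCN genes went in opposite directions. CCN1 (chromosome 1, 85580761 to 85583962, plus strand), which encodes a secreted adhesive protein, had 42.4, 38.2 and 44.2 CPM in the GPT1 libraries, against 57.5, 50.3 and 54.3 CPM in the control libraries. CCN2 (chromosome 6, 131948176 to 131951373, minus strand), the connective tissue growth factor gene, had 4.54, 5.61 and 5.79 CPM in the GPT1 libraries, against 7.61, 7.59 and 8.09 CPM in the control libraries. Both genes were lower in every GPT1 library than in any control library. CCN1 fell by 0.38 ± 0.10 on the log2 scale (SE; edgeR adjusted p = 0.0225) and CCN2 by 0.55 ± 0.14 (adjusted p = 0.0199). The call of CCN1 ended without GPT1 replicate 1, 2 or 3 or control replicate 1 (adjusted p up to 0.0943), and that of CCN2 without GPT1 replicate 1 or 3 or control replicate 1 (up to 0.0837). With the length and GC correction CCN1 was at -0.53 and CCN2 at -0.69, both past the threshold (adjusted p = 0.000461 and 0.00291). CCN2 shares 195 exonic bases with an antisense gene that had 38 counts over the 6 libraries, against 1152 for CCN2.

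CCN3 (chromosome 8, 119416306 to 119424353, plus strand), formerly NOV, encodes another matricellular protein of the family. It had 21.57, 21.999 and 21.12 CPM in the GPT1 libraries, against 6.24, 6.86 and 8.23 CPM in the control libraries. The GPT1 libraries were nearly level, and all lay far above the highest control. The means were 21.6 ± 0.44 CPM in GPT1 libraries and 7.11 ± 1.02 CPM in control libraries (SD, n = 3), a log2 fold change of 1.61 ± 0.13 (SE; edgeR adjusted p = 4.7e-05). The call of CCN3 held without each library in turn, with log2 fold changes between 1.53 and 1.73, and the value with the length and GC correction was 1.53. The genes whose course over the 6 libraries lay nearest to that of CCN3, among 11587 genes of at least 5 CPM, were HLA-DRB1, HMOX1 and KRTAP19-1. Their root mean square distances from CCN3 in gene-centred log2 CPM were 0.15, 0.16 and 0.17. HLA-DRB1 and KRTAP19-1 have close paralogs that may share reads with them.

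**Figure D2:**
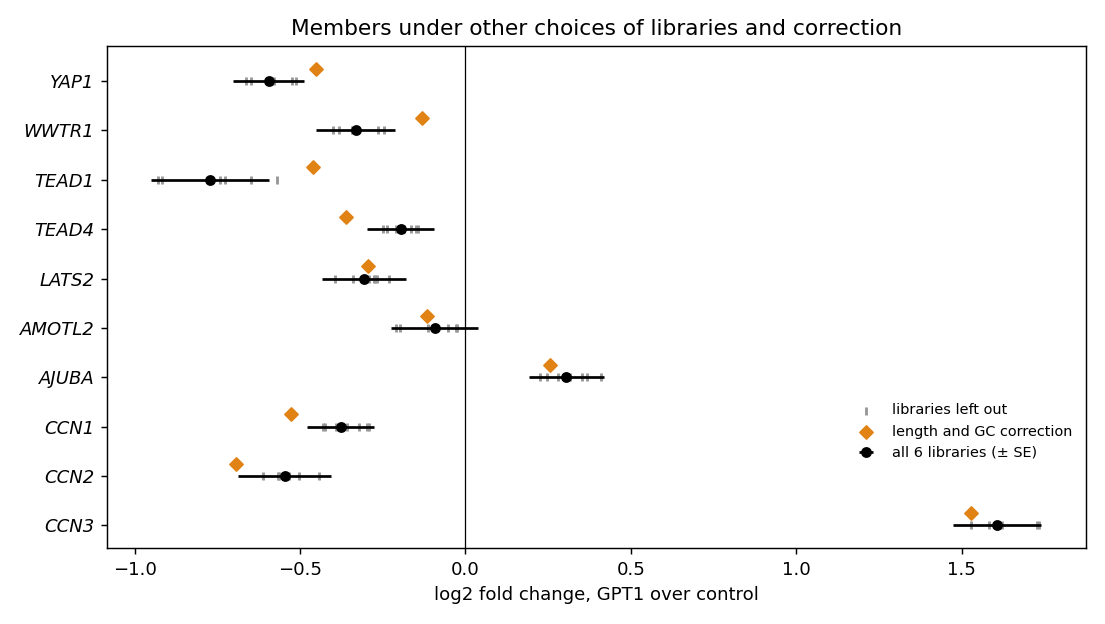
Log2 fold change of GPT1 over control (x axis) for the 10 genes (rows). Black points with bars are the fit to all 6 libraries with its SE, grey ticks are fits with 1 library or a pair of libraries left out, and orange diamonds are the fit corrected for transcript length and GC content. No fit shown changes the sign of a gene, and the correction moves WWTR1 to -0.13 and TEAD1 to -0.46.

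Promoter sequence is shown for CCN2, a textbook TEAD target that was lower in the GPT1 libraries, and for ANKRD1, another such target that was higher in them (values in the paragraph on targets). The windows run from 250 bases before to 50 bases after the annotated start, in RefSeq sequence of GRCh38.p14, at chr6:131951323-131951622 (minus strand) for CCN2 and chr10:90921038-90921337 (minus strand) for ANKRD1. Capitals mark GGAATG, the core of the MCAT element that TEAD factors bind, searched as GGAATG and its reverse complement CATTCC.
CCN2: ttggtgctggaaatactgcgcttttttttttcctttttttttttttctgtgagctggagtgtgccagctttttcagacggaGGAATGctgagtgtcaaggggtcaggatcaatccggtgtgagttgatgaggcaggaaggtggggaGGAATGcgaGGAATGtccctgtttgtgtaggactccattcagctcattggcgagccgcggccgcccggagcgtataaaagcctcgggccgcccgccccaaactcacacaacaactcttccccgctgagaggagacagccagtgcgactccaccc
ANKRD1: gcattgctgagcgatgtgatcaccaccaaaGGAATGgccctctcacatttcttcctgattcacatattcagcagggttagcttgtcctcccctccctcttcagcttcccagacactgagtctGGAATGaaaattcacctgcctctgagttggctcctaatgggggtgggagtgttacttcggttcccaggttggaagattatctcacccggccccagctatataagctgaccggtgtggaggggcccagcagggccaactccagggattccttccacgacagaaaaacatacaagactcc

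The CCN2 window held 3 copies of the motif, starting at -169, -104 and -95 from the annotated start, with the last 2 copies 3 bases apart. The ANKRD1 window held 2 copies, at -220 and -128. Of 35116 promoter windows of this length in the table, 14.0% held at least 1 copy on either strand and 45 windows (0.128%) held at least 3. Among the 10 genes, 6 had a window in the table, with 9 windows in all, of which 5 held the motif. YAP1 and LATS2 had 1 copy each in their windows, AMOTL2 and AJUBA had 1 copy in 1 of their 2 windows, and WWTR1 had none of these letters in its 2 windows. CCN2, which fell, and ANKRD1, which rose, both carry these letters. Among the 18 YAP and TAZ targets described below, 13 had a window, with 14 windows in all, of which 6 held the motif. The windows of IGFBP3, NT5E and MYOF, the targets that fell most, held 0 copies. PTPN14, which also fell, and FOXF2, which rose, had 1 copy each. A match is a description of the letters, not a site in use. TEAD1, TEAD4, CCN1 and CCN3 have no entry in the table.

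Levels of different genes were compared as CPM per kilobase of exon. In GPT1 libraries the order was TEAD4 (18.1 ± 0.95), CCN1 (16.9 ± 1.26), AJUBA (13.1 ± 1.37), CCN3 (8.07 ± 0.16), YAP1 (7.85 ± 0.87), TEAD1 (3.75 ± 0.75), AMOTL2 (3.75 ± 0.19), WWTR1 (2.87 ± 0.34), LATS2 (2.51 ± 0.17) and CCN2 (2.27 ± 0.29) CPM per kilobase (SD, n = 3). In control libraries it was CCN1 (22.01 ± 1.48), TEAD4 (20.7 ± 1.76), YAP1 (11.9 ± 1.02), AJUBA (10.6 ± 1.26), TEAD1 (6.41 ± 1.52), AMOTL2 (3.99 ± 0.60), WWTR1 (3.61 ± 0.26), CCN2 (3.32 ± 0.12), LATS2 (3.11 ± 0.33) and CCN3 (2.66 ± 0.38). CCN3 was the lowest of the 10 genes in the control libraries and level with YAP1 in the GPT1 libraries. In GPT1 libraries the SD ranges overlapped between TEAD4 and CCN1, CCN3 and YAP1, TEAD1 and AMOTL2, WWTR1 and LATS2, and LATS2 and CCN2 and these neighbours did not differ beyond their spread. In control libraries they overlapped between CCN1 and TEAD4, between YAP1 and AJUBA, and between each neighbouring pair from AMOTL2 down to CCN3.

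Within families the balance shifted most among the CCN genes. CCN3 made up 29.6%, 31.4% and 27.8% of the summed CPM per kilobase of the 6 CCN genes in the GPT1 libraries, against 8.04%, 9.76% and 10.7% in the control libraries. CCN1 made up 62.0 ± 2.30% of the sum in GPT1 libraries and 78.6 ± 1.89% in control libraries, and CCN2 made up 8.32 ± 1.07% in GPT1 libraries and 11.9 ± 0.59% in control libraries (SD, n = 3). CCN4, CCN5 and CCN6 had at most 3 counts in any library. The split between YAP1 and WWTR1 was narrow within each group. WWTR1 made up 26.3%, 26.7% and 27.2% of the pair in the GPT1 libraries and 23.5%, 23.5% and 23.0% in the control libraries. Among the TEAD factors TEAD4 was the leading gene in each library, with 45.0 ± 0.67% of the sum in GPT1 libraries and 43.6 ± 1.91% in control libraries. TEAD1 held 9.39 ± 2.25% in GPT1 libraries and 13.6 ± 3.78% in control libraries, with overlapping groups. In the angiomotin family AMOT held 79.4 ± 0.74% in GPT1 libraries and 83.9 ± 0.94% in control libraries, without overlap. Shares within a family are tied, so that a larger share of CCN3 by itself makes those of CCN1 and CCN2 smaller. These shares were not tested.

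**Figure D3:**
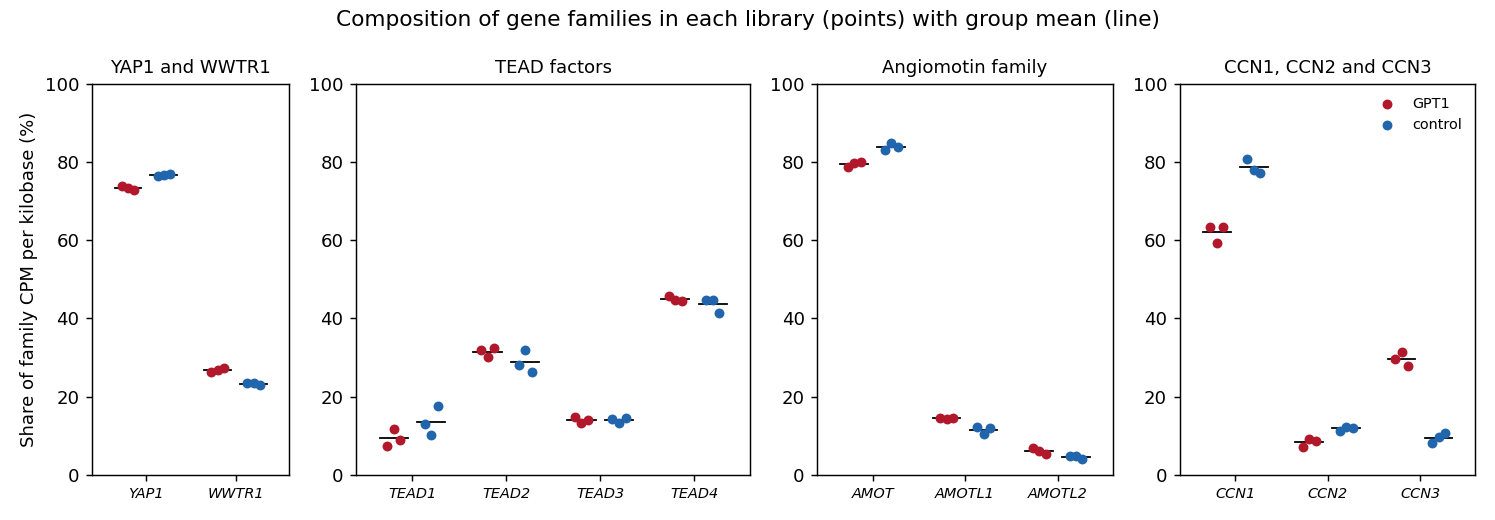
Share of each gene in its family's summed CPM per kilobase of exon (y axis, percent) in the GPT1 libraries (red) and the control libraries (blue). Each point is 1 library and each line a group mean. CCN3 takes 27.8% to 31.4% of its family in GPT1 libraries and 8.04% to 10.7% in control libraries, while the shares of the TEAD factors overlap between the groups.

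The rest of the pathway was read from a list of 40 genes, of which 36 were tested. In the GPT1 libraries 16 were lower and 2 higher, where 14.6% of all tested genes were lower and 10.5% higher, and the median log2 fold change was -0.27 over the list and -0.02 over all tested genes. With the length and GC correction the median of the list was -0.15, with 14 genes lower and 4 higher beside 18.6% and 15.8% of all tested genes, and 12 of the 16 falls held. The 16 genes that fell had a median GC content of 43.8% and a median transcript length of 6966.5 bases, against 49.0% and 3204.5 bases over all tested genes. The medians were 46.5% and 6494.5 bases over the 36 tested genes of the list, and 43.6% and 4913.5 bases over all genes called lower. Without GPT1 replicate 1 or GPT1 replicate 3, 5 genes of the list were lower and 0 higher, where 5.22% and 4.59% of all tested genes were lower. Without control replicate 1, 9 were lower and 0 higher, where 8.71% of all tested genes were lower.

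Upstream scaffolds held the largest falls, with 6 of 10 lower and 1 higher. WWC3, a KIBRA-family scaffold that activates LATS kinases, averaged 1.98 ± 0.36 CPM in GPT1 libraries and 4.84 ± 0.89 CPM in control libraries (log2 fold change -1.29 ± 0.20 SE, edgeR adjusted p = 0.002). The Crumbs polarity gene CRB3 averaged 1.39 ± 0.21 CPM in GPT1 libraries and 3.05 ± 0.11 CPM in control libraries (-1.13 ± 0.19, adjusted p = 0.00292). FAT1, a giant cadherin, had 65.4, 79.9 and 87.8 CPM in the GPT1 libraries, against 180, 146 and 163 CPM in the control libraries (-1.07 ± 0.12, adjusted p = 0.000321). These 3 calls held without each library in turn. WWC2 (-0.61), FRMD6 (-0.47) and WWC1 (-0.28) fell as well, though none of them without GPT1 replicate 1 or GPT1 replicate 3. The call of WWC1 ended under 5 of the 6 single leave-outs and that of FRMD6 under 4. Both calls also ended with either other scaling and with the replicate block (adjusted p = 0.113 for WWC1 and 0.0601 for FRMD6). With the length and GC correction WWC2 was at -0.35 and still passed (adjusted p = 0.0157). FRMD6 did not pass with the length and GC correction (-0.21, adjusted p = 0.111). NF2, which encodes the scaffold Merlin, was called higher at 51.7 ± 1.75 CPM in GPT1 libraries and 42.2 ± 2.04 CPM in control libraries (0.29 ± 0.09, edgeR adjusted p = 0.0391), a call that ended under 5 of the 6 single leave-outs. The scaffolds FAT4 (-0.01), DCHS1 (-0.26) and SCRIB (0.22) did not pass, but SCRIB did with the correction (0.25, adjusted p = 0.00336).

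Among the kinases and their cofactors 8 of 16 fell and 1 rose. TNIK (-0.63 ± 0.13 SE, edgeR adjusted p = 0.00844), TAOK1 (-0.95 ± 0.23, adjusted p = 0.0161) and MOB1B (-0.75 ± 0.20, adjusted p = 0.0212), a cofactor that activates LATS kinases, had the smallest adjusted p among the falls. TNIK, MAP4K3 (-0.61), MAP4K5 (-0.64), TAOK1 and TAOK3 (-0.48) belong to kinase families that can phosphorylate LATS kinases. TAOK1 had 23.5, 38.1 and 30.3 CPM in the GPT1 libraries and 50.9, 43.9 and 82.6 CPM in the control libraries, its highest values again in GPT1 replicate 2 and control replicate 3. It was at -0.52 with the length and GC correction, and MOB1B at -0.29, MAP4K3 at -0.39 and MAP4K5 at -0.29, all still past the threshold (adjusted p up to 0.0462). LATS1, the partner kinase of LATS2, fell by 0.49 ± 0.14 on the log2 scale (edgeR adjusted p = 0.0297). With the length and GC correction LATS1 was at -0.16 (adjusted p = 0.0876) and STK3, the kinase MST2 (-0.43), was at -0.10 (adjusted p = 0.466), so that neither passed. TAOK2 was the kinase that rose, to 121 ± 6.13 CPM in GPT1 libraries, against 94.6 ± 9.09 CPM in control libraries (0.36 ± 0.09, adjusted p = 0.0212). STK4, the kinase MST1 (-0.16), the scaffold SAV1 (-0.02) and MAP4K4 (0.00) did not pass. Of these kinase calls that of TNIK was kept without each library in turn, and the others ended without GPT1 replicate 1, GPT1 replicate 3 or another library.

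AMOT, which encodes angiomotin, the abundant paralog of AMOTL2, had 381, 437 and 440.8 CPM in the GPT1 libraries, against 634, 654 and 581 CPM in the control libraries (log2 fold change -0.57 ± 0.09 SE, edgeR adjusted p = 0.00211). This call held without each library in turn and with the length and GC correction (-0.44). PTPN14, a phosphatase that binds YAP, fell by 0.38 (adjusted p = 0.0225), but by 0.16 with the correction, and did not pass there (adjusted p = 0.0827). AMOTL1 (-0.16), LIMD1 (0.14) and WTIP (-0.06) did not pass, but LIMD1 did with the correction (0.31, adjusted p = 0.00821). Among the other TEAD factors and the vestigial-like cofactors 0 of 5 tested genes passed in edgeR, where 25.1% of all tested genes did. VGLL3 was at -0.54 (edgeR adjusted p = 0.0837) and VGLL4 at 0.24 (adjusted p = 0.0676). With the correction VGLL3 was at -0.09 (adjusted p = 0.664), whereas VGLL3 passed without a filter (adjusted p = 0.0103) and VGLL4 with upper-quartile factors (adjusted p = 0.0453). DESeq2 and limma voom likewise called 0 of the 5. TEAD2 (-0.11) and TEAD3 (-0.23) stood at -0.24 and -0.32 with the correction and passed there (adjusted p = 0.0161 and 0.0169).

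The downstream readout was a published signature of YAP and TAZ targets, 18 genes apart from the members. PTPN14 is also in the pathway list and is counted in both. Of these, 7 fell and 2 rose, beside the 14.6% and 10.5% of all tested genes, and the median log2 fold change was -0.23 against -0.02 over all tested genes. The median was -0.15 with the length and GC correction, with 6 lower and 2 higher. Without GPT1 replicate 1, 3 targets were lower beside 5.22% of all tested genes, and without GPT1 replicate 3, 4 targets beside 4.59%. IGFBP3, which encodes an insulin-like growth factor binding protein, had 1.61, 1.44 and 1.41 CPM in the GPT1 libraries, against 13.4, 4.60 and 12.7 CPM in the control libraries, of which replicate 2 was the lowest (log2 fold change -2.77 ± 0.36 SE, edgeR adjusted p = 0.000773). NT5E, the ecto-nucleotidase CD73, averaged 1.55 ± 0.48 CPM in GPT1 libraries and 3.68 ± 0.41 CPM in control libraries (-1.25 ± 0.23, adjusted p = 0.00524). MYOF, the membrane-repair protein myoferlin, averaged 4.02 ± 0.40 CPM in GPT1 libraries and 8.602 ± 0.37 CPM in control libraries (-1.10 ± 0.14, adjusted p = 0.000604). These 3 calls held without each library in turn. DOCK5 (-0.68), CRIM1 (-0.51), GADD45A (-0.28) and PTPN14 (-0.38) also fell, each losing the call without GPT1 replicate 1 (adjusted p between 0.0544 and 0.105). The calls of DOCK5, GADD45A and PTPN14 also ended without GPT1 replicate 3, and those of GADD45A and PTPN14 without control replicate 1. GADD45A lost its call without GPT1 replicate 2 as well, and with the replicate block (adjusted p = 0.073). GADD45A was at -0.49 with the correction.

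ANKRD1, which encodes a nuclear ankyrin-repeat protein and is a standard YAP reporter gene, went against these falls. It had 30.3, 33.2 and 31.4 CPM in the GPT1 libraries, against 12.5, 10.0 and 20.2 CPM in the control libraries, of which replicate 3 was the highest. It rose by 1.16 ± 0.21 on the log2 scale (SE; edgeR adjusted p = 0.00473), a call kept without each library in turn. FOXF2, a forkhead factor gene, was the other target that rose (0.33, adjusted p = 0.0482), but not without GPT1 replicate 1 or 3 or control replicate 1 or 3 (adjusted p up to 0.177), and it was at 0.22 with the correction. CCN1, CCN2, IGFBP3, NT5E and MYOF were lower in the same libraries in which ANKRD1 and CCN3 were higher. Among the target genes that did not pass were FJX1 (0.19), ASAP1 (-0.30), F3 (-0.23), AXL (-0.23) and TGFB2 (-0.23), the last 3 at under 5 CPM in every library.

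**Figure D4:**
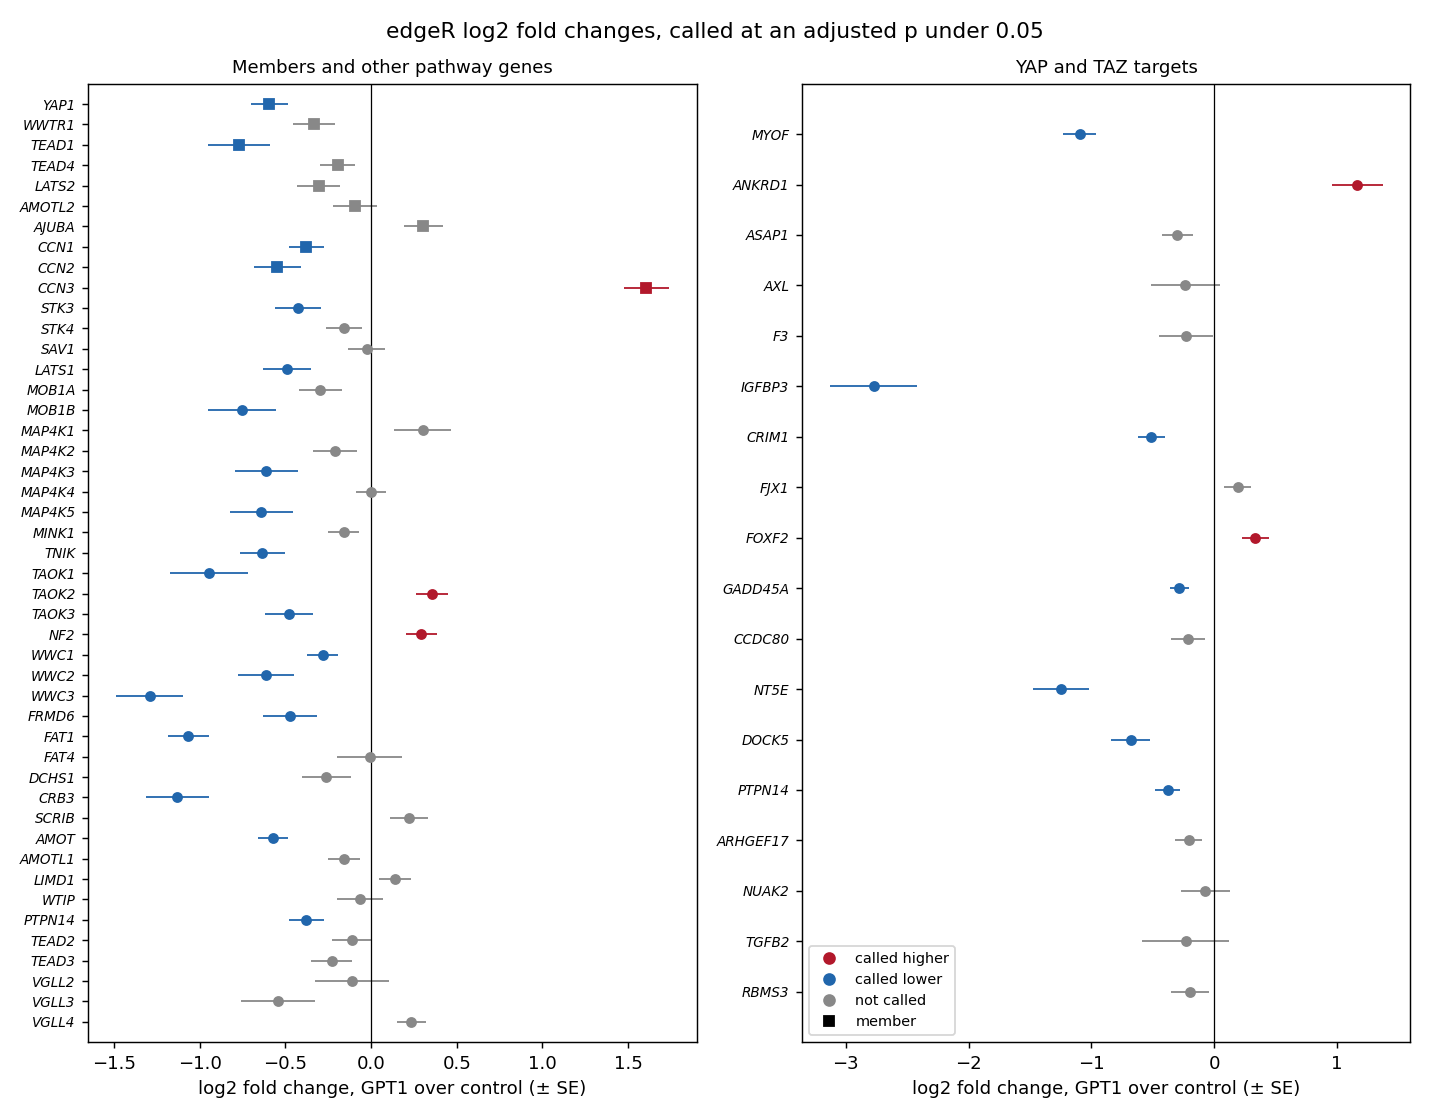
Log2 fold change of GPT1 over control with its SE (x axis) for the 10 members (squares) and 36 tested pathway genes (circles) at the left and for 18 YAP and TAZ targets at the right, each panel with its own scale. Red marks genes called higher, blue those called lower and grey those not called. CCN3 at 1.61 and ANKRD1 at 1.16 lie far to the right of the other genes, and IGFBP3 at -2.77 far to the left.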

How the data were processed

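mRNA sequencing gave a table of raw counts per gene, deposited by the authors, with 1 column per library, and each column was matched to its sample by name. Alignment used HISAT2 2.0 and GRCh38, per the submitters' processing notes. How reads were assigned to genes, with which annotation and with or without strand, is unknown here. Symbols came from a reference list of gene names, which held 60463 of 60664 genes. Coordinates and lengths came from GENCODE 29 on GRCh38, which held 58396 of them. Replicate pairs differed by more than sampling noise (chi-square per degree of freedom 9.98 to 30.8 over genes with at least 20 counts) and all libraries entered as separate samples.

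Tests used edgeR 4.0.16 under R 4.3.3: filterByExpr, TMM scaling, then glmQLFit and glmQLFTest on group, two-sided, with Benjamini-Hochberg adjustment over 17638 genes. The SE was the log2 fold change divided by the root of F. The procedure was tested on simulated data. Alternatives were DESeq2 1.42.0, limma voom 3.58.1, glmTreat against a 1.2-fold change, other scaling, filters and thresholds, GPT removed, a replicate block, single leave-outs, and an mgcv 1.9.3 offset per library on the length and GC content of the longest transcript. A fit without GPT1 replicate 2 and control replicate 3 was chosen after seeing the data.

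The members, lists and rules were chosen with earlier results of these data known. Named by rule were GPT, the members, list genes past the threshold (at most 6 per role and direction, by smallest adjusted p), and the 3 genes nearest to each called member whose log2 fold change was at least 1 in size. List genes beyond that limit or not past the threshold, VIM and the other single markers were named after their values were seen.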

Additional observations from a re-analysis of the deposited data

How the results depend on the processing

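YAP1 and CCN3 kept their calls under each alternative run (adjusted p up to 0.0338 for YAP1). The 10 genes gave 1 higher and 4 lower under both other scalings, DESeq2, limma voom, without GPT and with the filter at 1 CPM. Of all tested genes these fits called 10.5% to 12.5% higher and 13.2% to 15.5% lower. Without a filter 2 of the 10 genes were higher, AJUBA being the gain, and 1 of the other pathway genes, beside 6.65% of all genes tested there. Against a 1.2-fold change glmTreat called 527 genes higher and 897 lower in all, 2 of the 10 genes lower (CCN1 and CCN2 ended, adjusted p = 0.204 and 0.0858), 0 pathway genes higher and 6 lower, and 1 target higher and 3 lower. At an adjusted p of 0.01 there were 491 higher and 681 lower in all, 1 of the 10 genes lower, 0 pathway genes higher and 5 lower, and 1 target higher and 3 lower. With the length and GC correction 2786 genes were higher and 3286 lower in all, with 2 and 5 of the 10 genes and 4 and 14 pathway genes. The cause of these changes was not tested, apart from the stricter thresholds, which allow fewer calls.

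When single libraries, or GPT1 replicate 2 and control replicate 3 together (chosen after seeing the data), were left out, between 613 and 2490 genes were higher and between 830 and 3100 lower. Of the 10 genes 1 to 2 were higher and 1 to 5 lower, of the pathway genes 0 to 3 higher and 5 to 17 lower, and of the targets 1 to 2 higher and 3 to 8 lower. The fewest lower genes came without GPT1 replicate 1 or 3.

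Same-numbered libraries deviated together at correlations of 0.141, -0.282 and -0.0838, and the numbers were not read as pairs. With the replicate block 1416 genes were higher and 2470 lower in all, 1 and 4 of the 10 genes, 1 and 13 of the pathway genes, and 1 and 6 of the targets.

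The sign turned in some genes that were not called. MAP4K4 was at 0.0125 with DESeq2's size factors and in DESeq2, 0.0376 with upper-quartile factors, 0.000111 without a filter, 0.00529 with the filter at 1 CPM and 0.139 with the length and GC correction. FAT4 was at 0.00485 with DESeq2's size factors, 0.0308 with upper-quartile factors, 0.00413 in DESeq2, 0.0145 in limma voom, 0.0019 with the replicate block and 0.266 with the correction. SAV1 was at 0.0133 with upper-quartile factors and 0.0199 with the correction, which also turned STK4 (0.0253), MOB1A (0.015), WTIP (0.0878), CCDC80 (0.0937) and RBMS3 (0.224). Leaving out libraries gave ranges of -0.0581 to 0.0566 for MAP4K4, -0.197 to 0.149 for FAT4, -0.0918 to 0.0358 for SAV1, -0.12 to 0.0525 for WTIP, -0.262 to 0.0265 for VGLL2 and -0.18 to 0.116 for NUAK2. Depth limits CCN4, CCN5, CCN6 and VGLL1, which had too few counts to test.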
